A study of Mus musculus with 2 samples.

Results

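Lipid-associated macrophages are a state that macrophages take up in fatty tissue and around fat-laden or dying hepatocytes. Measured here in mouse liver were 10 genes that mark it, Trem2, Gpnmb, Cd9, Spp1, Lpl, Fabp5, Mmp12, Axl, Mertk and Lgals3. They were taken by symbol from a list given for this work, and all 10 were present among the 32285 genes of both count tables. On GRCm38 they lie, with their strands, as follows: Trem2 at chr17:48346401-48354147 (plus), Gpnmb at chr6:49036546-49070929 (plus), Cd9 at chr6:125460266-125494791 (minus), Spp1 at chr5:104435118-104441050 (plus), Lpl at chr8:68880491-68907448 (plus), Fabp5 at chr3:10012548-10016607 (plus), Mmp12 at chr9:7344381-7369499 (plus), Axl at chr7:25757273-25788705 (minus), Mertk at chr2:128698956-128802894 (plus), Lgals3 at chr14:47367751-47386160 (plus). Their levels were followed in Clec4f-positive and Clec4f-negative macrophages, monocytes, dendritic cells and biliary cells, in each of 2 single-cell RNA libraries.

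Both libraries came from livers of male littermates that were given CD-HFD, a feed rich in fat with no added choline, from 8 weeks of age for 6 months. The WT library came from wild-type mice. The HKO library came from mice with the miR-33 gene flanked by loxP sites and an Albumin-Cre transgene (the genotype is given as AlbCRE), which deletes miR-33 in hepatocytes. The albumin promoter that drives Cre is active in hepatocytes, so macrophages are not its target. For cholangiocytes (biliary cells), the paper states that an effect of this Cre on miR-33 still needs to be checked. Each library was a pool of 3 livers, with hepatocytes and sorted live non-parenchymal cells mixed in equal numbers before loading. There was 1 library per genotype, so no difference between WT and HKO could be tested and no p-value is given; the livers of a pool cannot be told apart. Every interval below is a 95% interval for counting error alone.

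Macrophages that take in lipid raise a set of genes for sensing, digesting and exporting it. TREM2 is a surface receptor for lipids and lipoproteins that signals through the adaptor TYROBP, and it is needed for much of the program in several tissues. The state is known in steatohepatitis, where Clec4f, a lectin made by Kupffer cells (the resident macrophages of the liver), helps to tell resident from recently arrived macrophages: cells newly come from blood monocytes lack it at first and gain it with time in the liver. Several of the 10 genes are also used by other cells. Osteopontin, encoded by Spp1, is abundant in bile duct cells, and MERTK is made by liver endothelial cells too.

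The microRNA deleted in hepatocytes of the HKO mice is shown first, because the comparison rests on it. The mature strand lies within an intron of Srebf2 at chr15:82198127-82198147 (GRCm38.p6, plus strand, RefSeq). Its seed, bases 2 to 8, which pairs with target messages, is in capitals.
miR-33-5p: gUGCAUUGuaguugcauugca
Promoter windows are shown for Mmp12 and Spp1, because a single WT Clec4f-positive barcode held 59.7% of the Mmp12 UMIs and another 60.0% of the Spp1 UMIs (3 of 5). RefSeq gave promoter windows of 300 bases (250 before to 50 after the start site, GRCm38.p6) for 8 of the 10 genes, in 10 windows. Lpl and Fabp5 were not matched. The letters TGAGTCA, to which AP-1 factors bind, were present on either strand in the windows of Gpnmb and Mmp12, and in 5.20% of all 32851 windows. The letters GAGGAAGT, a core bound by the macrophage factor PU.1, were present on either strand in windows of Mmp12 and Spp1, and in 3.20% of all. The letters CACGTG, bound by the lysosomal regulators of the TFE family, were in none of the 10 windows, against 7.15% of all. The printed matches did not overlap each other. A match describes the letters, and no binding was measured. In the lines that follow, 30 bases around a match are given with the motif in capitals, all on the plus strand, first from Mmp12 at chr9:7347319-7347348 (AP-1) and chr9:7344298-7344327 (PU.1, on the other strand), and then from Spp1 at chr5:104434987-104435016 (PU.1). The Mmp12 matches lie in separate windows, of different start sites: the AP-1 match begins at base -44 from a start site inside the gene as placed above, and the PU.1 match at base -88 from a start site near the gene's beginning.
Mmp12 AP-1: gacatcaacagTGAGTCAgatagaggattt
Mmp12 PU.1: ccacttcacccACTTCCTCttccaagactc
Spp1 PU.1: caaaaccagagGAGGAAGTgtaggagcagg

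The deposited tables held 30078 WT barcodes with 130451427 unique molecular identifiers (UMIs, each standing for 1 captured RNA molecule) and 20000 HKO barcodes with 52563185. Cell classes were clusters named from fixed marker genes, with the 10 genes kept out of the clustering, and a class is called by its markers ("macrophage-like" in full). The macrophage cluster held 21 WT and 100 HKO barcodes, and all 14 macrophage markers were detected in its Clec4f-positive barcodes of both libraries. Barcodes of this cluster with at least 1 Clec4f UMI were called Clec4f-positive, 17 in WT and 93 in HKO. The other 4 WT and 7 HKO barcodes were called Clec4f-negative, a class too small to describe a population. There were 24 and 52 monocytes, 12 and 62 dendritic cells, and 8 and 24 biliary cells. A further 9 and 38 barcodes carried macrophage and stellate cell markers together, and 12 and 48 carried macrophage and endothelial markers together. These mixed barcodes were held apart. WT macrophages held more UMIs a barcode, with a median of 16357 UMIs in WT and 9329 in HKO Clec4f-positive barcodes. The labels name the same reagent kit for both libraries, and the files used here did not settle whether both were made with it, so a difference in chemistry cannot be told apart from genotype in any comparison of HKO with WT. Barcode sequences of the WT library were not analysed here, so barcodes that the libraries might share were not counted.

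**Figure D1:**
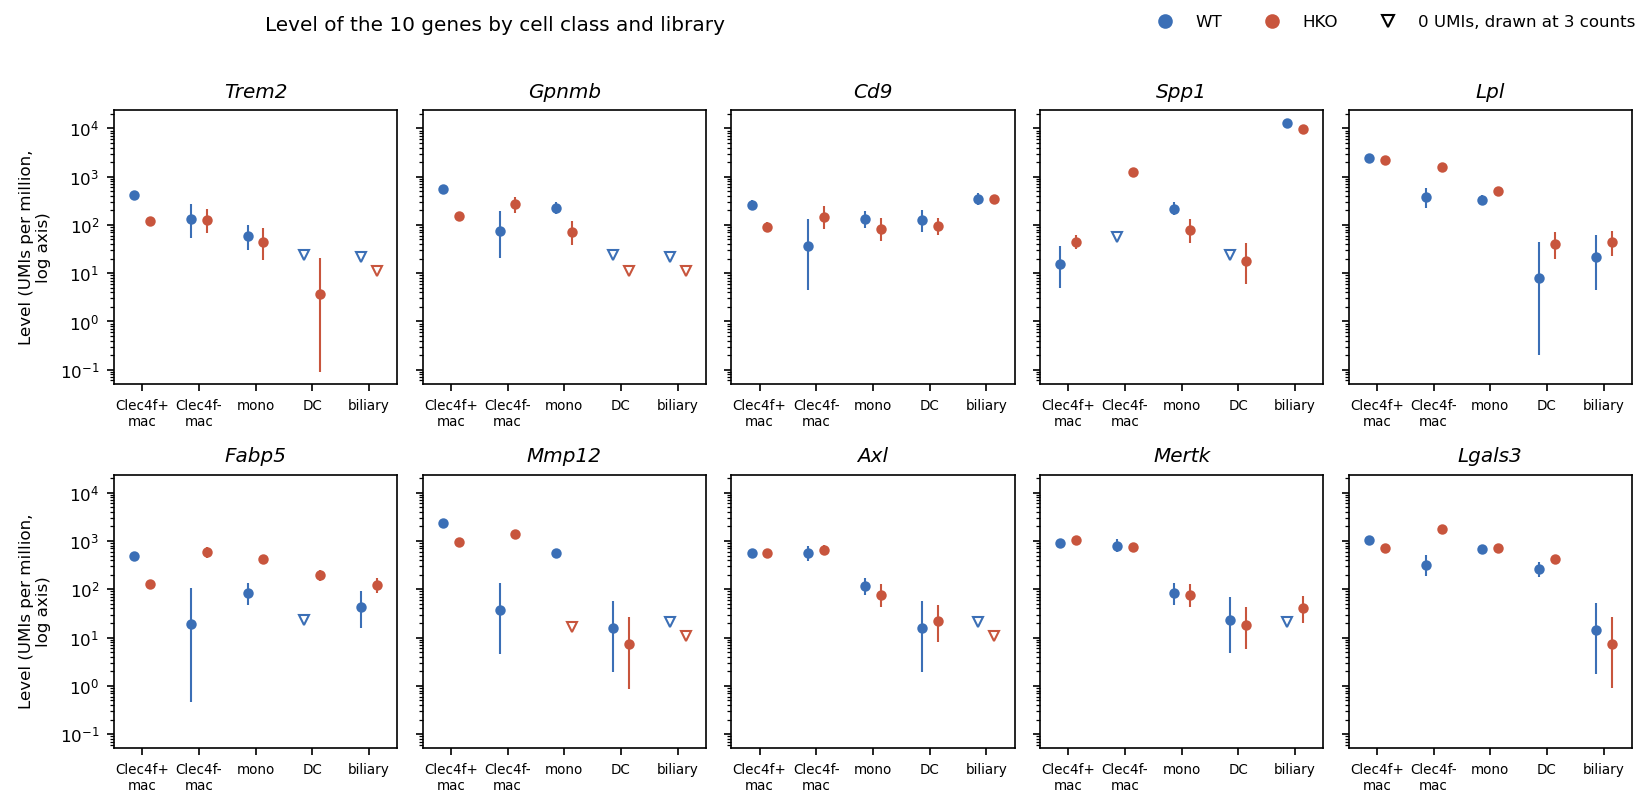
Each panel shows 1 gene, with its level in CPM (UMIs of the gene scaled to all UMIs of the class) on a log axis and the 5 cell classes along the x axis, WT in blue and HKO in red; points are sums over all barcodes of a class in 1 library, bars are 95% counting intervals, and open triangles mark 0 UMIs, drawn at the level of 3 counts. Trem2, Gpnmb, Fabp5 and Mmp12 were higher in WT than in HKO Clec4f-positive macrophages, and Spp1 reached 13088 and 9940.0 in biliary cells.

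Levels are given as CPM, the UMIs of a gene over all UMIs summed over the barcodes of a class, on the usual scale on which 10000 CPM is 1% of the UMIs. The sum of the 10 genes was 9035 CPM (8711 to 9368) in WT and 6102 CPM (5945 to 6262) in HKO Clec4f-positive macrophages. The HKO over WT ratio of the sum was 0.675 (0.646 to 0.706). Among the 10 genes, 5 were at least 2-fold lower in HKO (Trem2, Gpnmb, Cd9, Fabp5 and Mmp12) and 1 was at least 2-fold higher (Spp1). Over all 9261 genes with at least 10 UMIs in this comparison, 7.45% were at least 2-fold lower and 10.3% at least 2-fold higher. The median log2 ratio was -0.92 over the 10 genes and 0.06 over all 9261. For the median barcode the sum was 4402 CPM (WT) or 4306 CPM (HKO), and the ranges overlapped, from 1382 to 28075 CPM in WT and from 1131 to 22620.2 CPM in HKO.

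**Figure D2:**
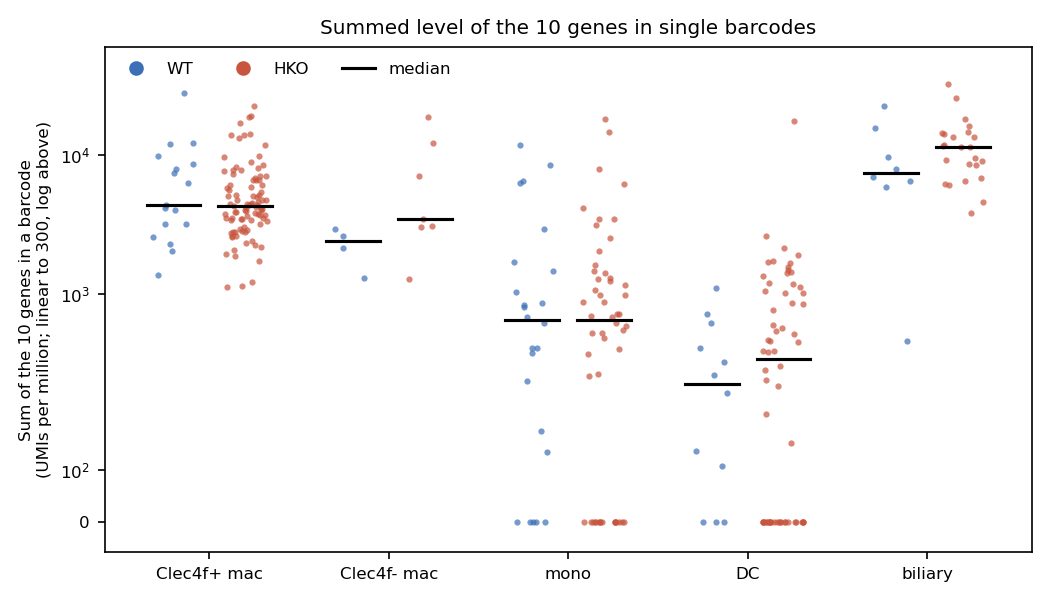
Each point is 1 barcode and its summed level of the 10 genes in CPM, on an axis that is linear up to 300 and logarithmic above, by cell class and library (WT blue, HKO red), with the median as a black line. In Clec4f-positive macrophages the medians were 4402 and 4306, while 1 WT barcode reached 28075.

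The receptors were read first. Trem2 gave 135 UMIs in WT and 113 in HKO Clec4f-positive macrophages. This was 415 CPM (348 to 491) and 121 CPM (99.6 to 145), respectively, and the ratio was 0.291 (0.225 to 0.377). It was 0.360 without the barcode richest in Trem2 in each library. A Trem2 UMI was present in 58.8% of the 17 WT barcodes (exact binomial interval 32.9% to 81.6%) and in 43.0% of the 93 HKO barcodes (32.8% to 53.7%). Thinned to 1000 UMIs a barcode, the expected shares were 19.0% and 10.1%. In hepatocyte-like barcodes, which should lack the gene, the share was 0.677% in WT at a median of 19291 UMIs. In HKO it was 0 of 1673 barcodes at a median of 10682 UMIs, with an exact upper bound of 0.220%. Axl and Mertk encode receptors of the TAM family, which take up dying cells through the bridging proteins GAS6 and protein S. Axl stood at 556 and 576 CPM, giving 1.03 (0.873 to 1.23). Mertk stood at 901 and 1037 CPM, giving 1.15 (1.01 to 1.32). Both genes were detected in all 17 WT barcodes, and in 89 (Axl) and 93 (Mertk) of the 93 HKO barcodes. Over all barcodes both ratios lay above that of Trem2. The counting intervals do not cover how UMIs clump in few barcodes, so they do not test a difference between genes. Without the 4th macrophage sub-cluster, described below, the ratios were 1.02 (Trem2), 1.09 (Axl) and 0.956 (Mertk). Within that sub-cluster they were 0.314, 0.778 and 1.58.

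Gpnmb encodes a transmembrane glycoprotein of lysosome-rich macrophages. It gave 179 UMIs in WT (550 CPM, 473 to 637) and 142 in HKO (152 CPM, 128 to 179), a ratio of 0.276 (0.220 to 0.346). The WT UMIs lay in 7 of 17 barcodes and the HKO UMIs in 28 of 93, so the median barcode had no Gpnmb UMI in either library. Cd9, a tetraspanin of the cell surface, stood at 264 CPM in WT and 90.9 CPM in HKO (0.344, 0.252 to 0.470). Lgals3, the gene of galectin-3, a lectin secreted by activated macrophages, stood at 1064 CPM and 723 CPM (0.680, 0.596 to 0.776). It was found in 17 of 17 and 83 of 93 barcodes.

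Of the lipid-handling genes, Lpl and Fabp5 differed in their pattern. Lpl encodes lipoprotein lipase, the enzyme that frees fatty acids from lipoprotein triglyceride. Its levels in WT and HKO were 2426 CPM (2259 to 2601) and 2261 CPM (2165 to 2359), giving 0.932 (0.859 to 1.01), and it was detected in 17 of 17 and 92 of 93 barcodes. Fabp5, a carrier of fatty acids inside the cell, stood at 486 CPM in WT and 132 CPM in HKO (0.271, 0.212 to 0.345). Its UMIs came from 6 of 17 WT and 21 of 93 HKO barcodes. Lpl was thus spread over nearly all Clec4f-positive barcodes, and Fabp5 over a minority.

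Mmp12 and Spp1, which encode secreted products, were the most unevenly spread in WT. Mmp12, the macrophage elastase, gave 767 UMIs in WT (2358 CPM) and 902 in HKO (965 CPM), a ratio of 0.409 (0.371 to 0.451). A single WT barcode held 458 of the 767 UMIs, or 59.7%, and without the barcode richest in Mmp12 in each library the ratio was 0.814. Spp1 gave 5 UMIs in WT (15.4 CPM) and 42 in HKO (44.9 CPM), a ratio of 2.92 (1.16 to 9.47). Of the 42 HKO UMIs, 26 (61.9%) lay in 1 barcode, and only 3 WT and 8 HKO barcodes held any. With all genes, the 10 included, in the clustering, the ratio of Spp1 was 1.11, and it was no longer 2-fold higher. Hepatocyte and free RNA, scaled to the class by its Alb UMIs, equalled 65.3% of the WT and 6.19% of the HKO UMIs of Spp1, and at most 1.88% of those of each other gene.

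**Figure D3:**
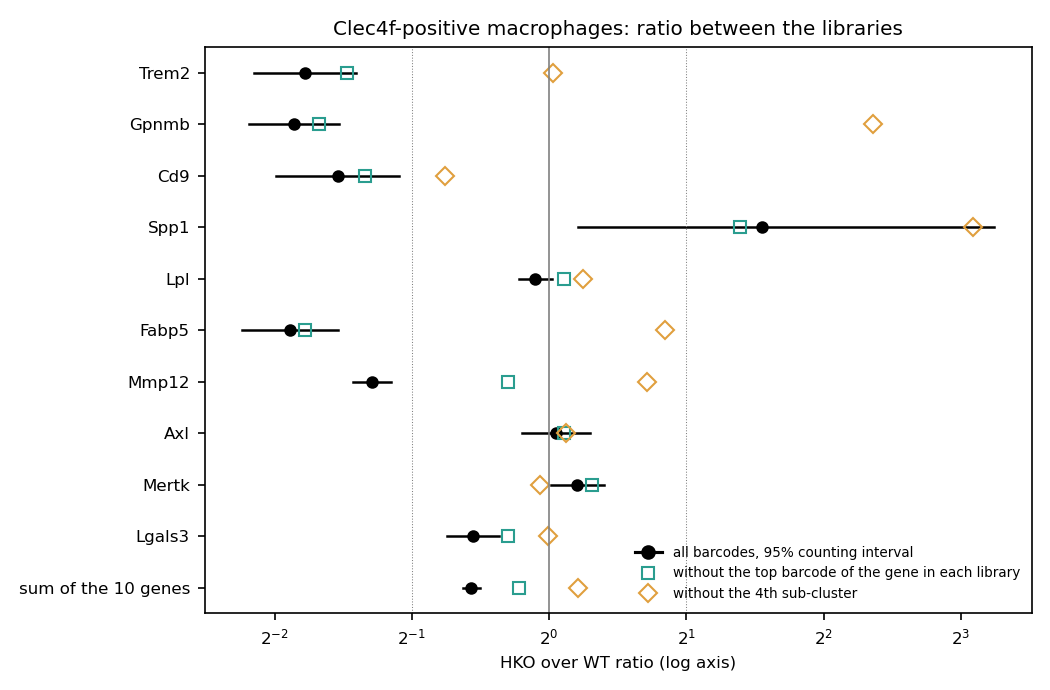
HKO over WT ratio of each gene and of their sum in Clec4f-positive macrophages, on a log axis, with all barcodes (black, with 95% counting interval), without the barcode richest in the gene in each library (green squares) and without the 4th macrophage sub-cluster (orange diamonds), and with dotted lines at 2-fold. Without that sub-cluster the ratio of Trem2 was 1.02 and that of Gpnmb 5.14, with the remaining 12 WT barcodes all in the second sub-cluster and 35 and 26 of the 84 HKO barcodes in the first and the third, which held no WT barcode.

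Macrophages were clustered once more, without the 10 genes and the related lists, to see where the UMIs lay. This gave 4 sub-clusters, of which the first (41 HKO barcodes) and the third (26 HKO barcodes) held no WT barcode. The second held 16 WT and 23 HKO barcodes, and the 4th held 5 WT and 10 HKO barcodes. The sub-clusters were not named as cell types. The leading genes of the 4th included Ccn2, Adam8, Cxcl14, Cdkn2a, Ccl2 and Pf4. Summed as a list, the Kupffer cell markers were not low in it, at 9455 CPM in WT and 8092 CPM in HKO. In the other sub-clusters they stood at 9189 CPM in WT and at 7308 to 14965 CPM in HKO. Timd4, a gene of Kupffer cells, was at 14.2 CPM (2 UMIs) in WT and 128 CPM (9 UMIs) in HKO. Elsewhere it was at 122 CPM in WT and at 74.7 to 270 CPM in HKO. Marco, a scavenger receptor of resident Kupffer cells, was at 0 UMIs in the 4th in both libraries. Marco was also low in the first, at 10.9 CPM (6 UMIs), against 525 and 205 CPM in the second and 714 CPM in the third. The second was led by genes of hepatocytes, among them Tat and Glyat. The third was led by the haemoglobin genes Hba-a1 and Hbb-bs, and its leading genes included Marco and Top2a, a gene of dividing cells. The first was led by Ighg1, Igkc, Jchain and other antibody genes together with Chil3, S100a4 and F13a1.

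Trem2, Gpnmb, Cd9, Lpl, Fabp5, Mmp12 and Lgals3 stood highest in the 4th sub-cluster, in WT and in HKO. Trem2 was at 817 CPM in the 5 WT barcodes and 256 CPM in the 10 HKO barcodes of the 4th sub-cluster. In the second sub-cluster it was at 113 CPM in WT and 55.4 CPM in HKO, in the first at 164 CPM and in the third at 33.8 CPM. Gpnmb showed the same order within WT, 1236 CPM in the 4th against 37.8 CPM in the second. In HKO, Gpnmb was at 327 CPM in the 4th, 242 CPM in the first, 66.5 CPM in the second and 4.23 CPM in the third. Mmp12 was at 4852 and 3649 CPM in the 4th sub-cluster of WT and HKO, and at 361 and 94.2 CPM in the second. Fabp5 was at 1044 and 454 CPM in the 4th, and at 50.4 and 16.6 CPM in the second. Axl and Mertk did not share this order. Axl stood at 583 and 468 CPM in the 4th and 542 and 488 CPM in the second, and Mertk at 661 and 1051 CPM in the 4th and 1021 and 953 CPM in the second.

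**Figure D4:**
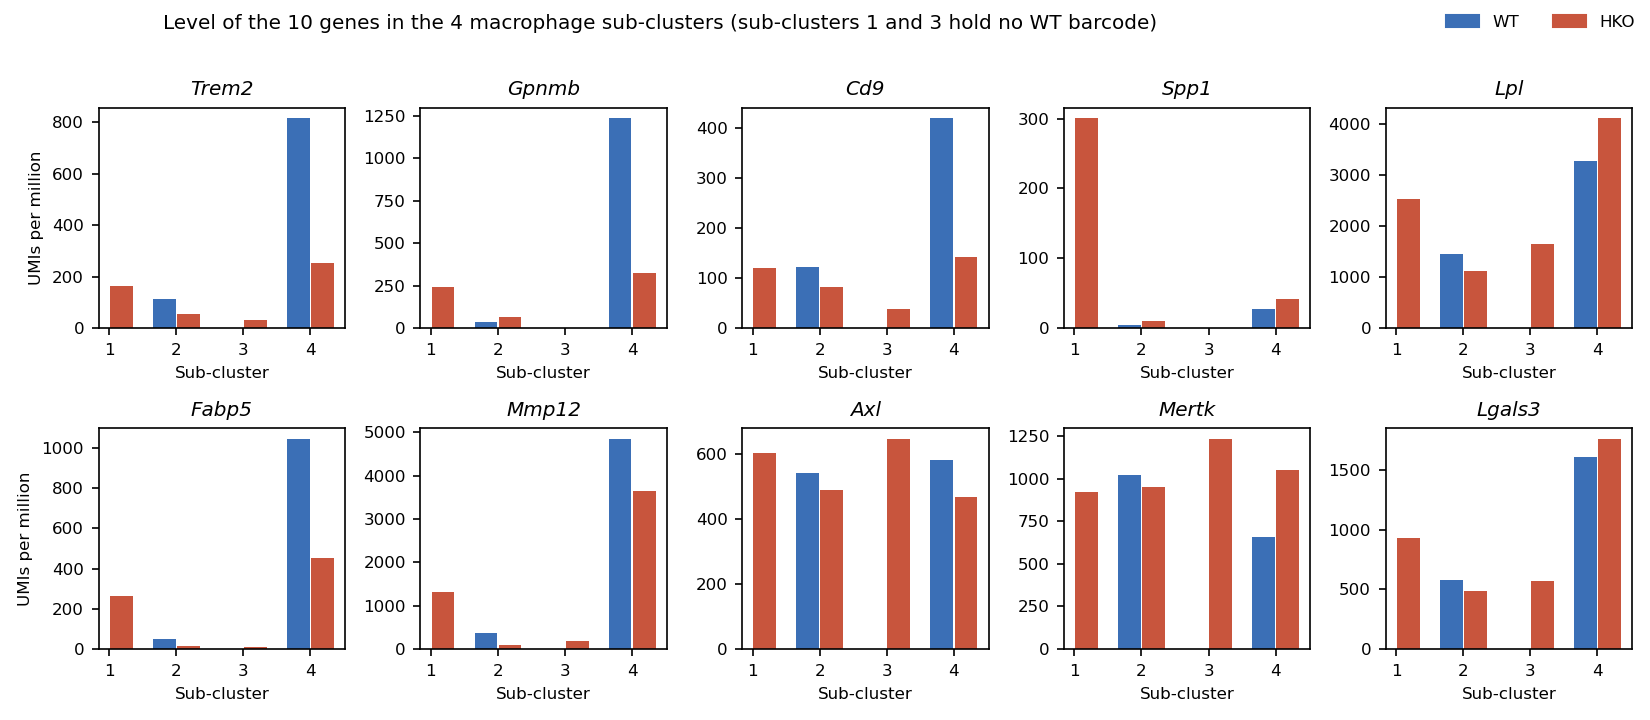
Level of each gene in CPM (y axis, linear, starting at 0) in the 4 macrophage sub-clusters (x axis), WT in blue and HKO in red, Clec4f-positive and Clec4f-negative barcodes together, each bar the sum over the barcodes of 1 library. For Trem2 the WT bar of the 4th sub-cluster stands at 817 and rests on 5 barcodes.

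The 5 WT barcodes of the 4th sub-cluster held 85.2% of the Trem2 UMIs of WT Clec4f-positive macrophages, 97.2% of those of Gpnmb, 93.04% of those of Fabp5 and 89.0% of those of Mmp12. In HKO, the 9 Clec4f-positive barcodes of this sub-cluster held 15.04% of the Trem2 UMIs, 14.8% of those of Gpnmb, 24.4% of those of Fabp5 and 28.3% of those of Mmp12. Without the 4th sub-cluster, 12 WT and 84 HKO barcodes remained, 0 of the 10 genes were at least 2-fold lower in HKO, against 9.66% of 8828 genes, 2 were higher (Gpnmb and Spp1), against 11.6%, and the ratio of the sum was 1.16. The ratios of single genes were then 1.02 for Trem2, 5.14 for Gpnmb, 1.80 for Fabp5 and 1.64 for Mmp12. These remaining groups differed in their makeup: all 12 WT barcodes lay in the second sub-cluster, against 23 of the 84 HKO barcodes, and the other HKO barcodes lay in the first (35) and the third (26), where WT had none. Within the second sub-cluster alone, Clec4f-positive barcodes had an HKO over WT ratio of the sum of 0.694 (0.625 to 0.770), with 2 of the 9 genes with at least 10 UMIs at least 2-fold lower, against 8.92% of 5637 genes, and 1 higher, against 9.03%. The lower ones were Mmp12 (0.207, 0.115 to 0.351) and Fabp5 (0.279, 0.04997 to 1.06, from 11 and 3 UMIs), and the higher one was Gpnmb (2.45, 0.805 to 8.89), from 5 and 12 UMIs. Trem2 there was at 0.511 (0.214 to 1.14). Within the 4th sub-cluster alone, with 5 WT and 9 HKO Clec4f-positive barcodes, the ratio of the sum was 0.868 (0.7997 to 0.941), and 4 of the 9 genes with at least 10 UMIs were at least 2-fold lower, against 13.8% of 3643 genes. The lower ones were Trem2 (0.314, 0.177 to 0.526), Gpnmb (0.257, 0.155 to 0.405), Cd9 (0.360, 0.164 to 0.711) and Fabp5 (0.434, 0.283 to 0.646), while Mmp12 was at 0.794 (0.685 to 0.918). Lpl (1.31, 1.13 to 1.53) and Mertk (1.58, 1.14 to 2.18) lay above 1 there, and Lgals3 was at 1.08 (0.857 to 1.36). Median depths in the 4th sub-cluster were 28272 UMIs for its 5 WT barcodes and 7797.5 UMIs for all 10 of its HKO barcodes. These splits were chosen with the values in view. How the share of 5 in 17 varies between livers cannot be told from 1 library.

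Markers of other cells moved with the library. The T and NK cell markers summed to 6.15 CPM in WT and 256 CPM in HKO Clec4f-positive macrophages, with 11 of 13 markers at 0 in WT and none in HKO. B and plasma cell markers summed to 3.07 and 296 CPM, with 8 and 1 of 9 at 0. Hepatocyte markers summed to 13886 CPM in WT and 6229 CPM in HKO, with none of 8 at 0. Erythroid markers summed to 18.4 and 185 CPM, with 2 of 4 at 0 in WT and none in HKO, and markers of cycling cells to 15.4 and 109 CPM, with 2 of 5 at 0 in WT and none in HKO. The part of these markers in the differences was not tested. Without the 3 WT and 32 HKO barcodes that held a UMI of a lymphocyte marker, the ratio of the sum was 0.892, that of Trem2 0.279, that of Spp1 0.176 and that of Mmp12 1.06. This removal was also chosen with the values in view.

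Trem2, Gpnmb and Mmp12 were also read outside the macrophage cluster, relative to 6 macrophage genes (C1qa, C1qb, C1qc, Csf1r, Adgre1 and Clec4f). Per 100 UMIs of these, Trem2 gave 3.14 UMIs in WT and 1.11 in HKO in the macrophage cluster. It gave 1.32 and 0.722 in the mixed macrophage barcodes, and 1.52 and 0.887 in barcodes at the depth of free RNA (ratio 0.582, 0.264 to 1.16, from 52 and 10 UMIs). Mmp12 gave 17.0 and 9.19 in the macrophage cluster, 3.30 and 5.67 in the mixed barcodes, and 11.05 and 3.63 at free RNA depth (0.329, 0.232 to 0.455). Gpnmb gave 4.05 and 1.49, then 0.233 and 1.18, then 1.26 and 0.975 (0.774, 0.360 to 1.53). Trem2 had a ratio under 1 in each of these pools, although its interval at free RNA depth included 1, whereas Gpnmb and Mmp12 were higher in HKO in the mixed barcodes. These pools came from the same livers and are no replicates. Barcodes at free RNA depth differed between WT and HKO, with medians of 2606 and 952 UMIs and mitochondrial shares of 4.02% and 11.9%. Their erythroid markers summed to 443 and 4329 CPM. The part of this in the ratios was not tested.

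The mixed barcodes split further. Where macrophage markers came with endothelial markers, the sum of the 10 genes was 2530 CPM in WT and 4242 CPM in HKO, with Mmp12 at 4 and 316 UMIs (ratio 33.6, 13.01 to 124). Where macrophage markers came with stellate markers, it was 3647 and 2454 CPM, with Mmp12 at 468 and 154 CPM and Lpl at 1803 and 785 CPM. Trem2 was at 91.7 and 78.1 CPM in the endothelial-marked barcodes (0.852, 0.479 to 1.56). In the stellate-marked barcodes it was at 86.7 and 23.4 CPM (0.270, 0.121 to 0.600, from 15 and 14 UMIs). Markers of other cells moved with the library in these stellate-marked barcodes: neutrophil markers summed to 40.5 and 2725 CPM (5 and 0 of 8 at 0), B and plasma cell markers to 11.6 and 920.1 CPM (8 and 2 of 9 at 0), endothelial markers to 1584 and 4649 CPM (none of 11 at 0) and hepatocyte markers to 13005 and 4028 CPM (none of 8 at 0). In the endothelial-marked barcodes, hepatocyte markers summed to 14727 and 7454 CPM (none of 8 at 0). Their part in these differences was not tested. When mixed barcodes were pooled with the macrophage cluster, the ratio of the sum in Clec4f-positive barcodes was 0.722.

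Timd4 marks Kupffer cells of long residence, and Clec4f-positive barcodes were divided at 1 Timd4 UMI. In WT, Trem2 stood at 55.2 CPM in the 7 Timd4-positive and 596 CPM in the 10 Timd4-negative barcodes, at median depths of 13835 and 19938.5 UMIs. Gpnmb stood at 9.20 and 822 CPM, and Fabp5 at 9.20 and 725 CPM. The 5 WT barcodes of the 4th sub-cluster held 115 of the 135 Trem2, 174 of the 179 Gpnmb and 147 of the 158 Fabp5 UMIs. The Timd4-positive WT barcodes held 6, 1 and 1 UMIs of these genes. Most of the 129, 178 and 157 UMIs of the Timd4-negative WT barcodes thus came from at most 5 barcodes. The Timd4 split was not made apart from that sub-cluster. In HKO, Gpnmb stood at 70.4 CPM in 45 Timd4-positive and 239 CPM in 48 Timd4-negative barcodes, and Fabp5 at 45.5 and 224 CPM. The HKO sum of the 10 genes was level, at 6090.1 and 6115 CPM, whereas in WT it was 5859 and 10629.8 CPM. Spp1 in HKO went the other way, at 76.6 and 11.1 CPM (37 and 5 UMIs), and Lpl (2394 and 2118 CPM) and Cd9 (105.5 and 75.3 CPM) were somewhat higher in Timd4-positive barcodes. Trem2 showed no such gap in HKO, with 130 CPM (100.2 to 167) in Timd4-positive and 111 CPM (82.2 to 146) in Timd4-negative barcodes. Axl differed little by Timd4 in either library, at 625 and 522 CPM in WT and at 586 and 565 CPM in HKO.

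Detection of Trem2, Gpnmb and Mmp12 in the same barcode was counted. All 3 were detected in 6 of 17 WT (35.3%) and 20 of 93 HKO (21.5%) Clec4f-positive macrophages. None of the 3 was detected in 5 and 35 of them. In monocytes, 0 of 24 and 0 of 52 barcodes had all 3, and 15 and 45 had none. Depth went along with detection: Clec4f-positive barcodes with all 3 had a median of 28287.5 UMIs in WT and 12136 in HKO, against 10934 and 7367 in those with none.

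Clec4f-negative macrophages held few UMIs in WT, and few barcodes in either library. The 4 WT barcodes held 126 UMIs of the 10 genes (2352 CPM, 1959 to 2800) and the 7 HKO barcodes 864 (8493 CPM, 7936 to 9079). In HKO, 1 barcode held 498 of the 864, with 127 of the 128 Spp1 UMIs and 56 of the 60 Fabp5 UMIs of the class. The HKO over WT ratio of the sum was 3.61 (2.99 to 4.39) and was 2.24 without the richest barcode of each library. The groups shared no sub-cluster: the 4 WT barcodes lay in the second, and of the 7 HKO barcodes 6 lay in the first and 1 in the 4th, so that genotype and sub-cluster cannot be told apart. Of the 10 genes, 7 were at least 2-fold higher in HKO (Gpnmb, Cd9, Spp1, Lpl, Fabp5, Mmp12 and Lgals3) and 0 lower, against 19.2% and 14.5% of 2999 genes. Monocyte markers summed to 429 CPM in WT, with 5 of 10 at 0, and to 1937 CPM in HKO, with 1 of 10 at 0. Hepatocyte markers summed to 16293 and 3932 CPM, with none of 8 at 0 in either library. The part of these markers in the difference was not tested. Trem2 was at 131 and 128 CPM, from 7 and 13 UMIs. Spp1 was at 0 UMIs in WT, where 3 counts would be 56.0 CPM, and at 1258 CPM in HKO, at least 22.5-fold higher against that floor. Axl (560 and 659 CPM) and Mertk (803 and 737 CPM) had ratios whose intervals included 1, 1.18 (0.754 to 1.87) and 0.919 (0.623 to 1.37).

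Compared with Clec4f-positive barcodes of the same library, WT Clec4f-negative macrophages had lower levels. In WT, the ratio of the sum was 0.260 (0.216 to 0.311), and 7 of the 9 genes with at least 10 UMIs were at least 2-fold lower, against 14.7% of 5676 genes. None of the 10 genes was at least 2-fold higher, against 13.4%. The WT Clec4f-positive level rests in part on the 5 barcodes of the 4th, which held 69.5% of its UMIs of the 10 genes. Against the other 12 Clec4f-positive barcodes, the ratio of the sum was 0.485 (0.399 to 0.585). Trem2 (1.21, 0.431 to 2.97) and Gpnmb (2.76, 0.547 to 12.8) then lay above 1, with intervals that included 1, and Lpl (0.210, 0.127 to 0.330), Mmp12 (0.0820, 0.00977 to 0.306) and Lgals3 (0.488, 0.275 to 0.814) remained lower. Mmp12 had 767 UMIs in the positive and 2 in the negative barcodes (0.0158, 0.00191 to 0.0574), and Lpl stood at 2426 and 373 CPM. Axl (556 and 560 CPM) and Mertk (901 and 803 CPM) were close. In HKO, the ratio of the sum was 1.39 (1.29 to 1.495), 3 of the 10 genes (Spp1, Fabp5 and Lgals3) were at least 2-fold higher, against 13.5% of 8744 genes, and 0 were at least 2-fold lower, against 12.0%. Without the richest barcode of each group the HKO ratio of the sum was 0.823. The ratios of Spp1 (28.0), Fabp5 (4.48) and Lgals3 (2.46) then became 0.763, 0.552 and 1.69, so that none of these 3 was still 2-fold higher. Trem2 (1.06) and Lpl (0.687) became 0.467 and 0.365, at least 2-fold lower. The HKO groups differed in sub-cluster. Of the Clec4f-negative barcodes 6 lay in the first and 1 in the 4th, and of the positive ones 35, 23, 26 and 9 in the first to 4th. Clec4f-negative HKO macrophages also had more monocyte marker UMIs, 1937 CPM against 381 CPM in the positive ones, with 1 of 10 markers at 0 in each. T and NK cell markers summed to 0 against 256 CPM, B and plasma cell markers to 29.5 against 296 CPM, and hepatocyte markers to 3932 against 6229 CPM. The part of sub-cluster and of these markers in the difference was not tested.

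Monocytes, the blood cells that give rise to recruited macrophages, had a lower sum of the 10 genes, though not less of each. The sum in Clec4f-positive macrophages was 3.63 times (3.30 to 3.99) that in monocytes in WT and 2.97 times (2.67 to 3.30) in HKO. In WT, 8 of the 10 genes were at least 2-fold higher in Clec4f-positive macrophages than in monocytes, against 15.5% of 7081 genes, and 1 was lower, against 20.1%. Without the 5 barcodes of the 4th sub-cluster, 3 of the 10 were higher (Lpl, Axl and Mertk), against 13.7% of 6224 genes, and 2 were lower (Gpnmb and Spp1), against 19.9%, and the ratio of the sum was 1.95 (1.74 to 2.17). Gpnmb then stood at 27.1 CPM against 228 CPM in monocytes (0.119, 0.0368 to 0.297), and Trem2 (1.86, 0.866 to 4.17), Cd9 (1.12, 0.630 to 1.98), Fabp5 (0.722, 0.306 to 1.63) and Mmp12 (0.801, 0.598 to 1.07) had intervals that included 1. With all barcodes, the lower gene was Spp1, at 15.4 CPM in Clec4f-positive macrophages and 219 CPM in monocytes (0.0703, 0.0218 to 0.177). In HKO, 6 were higher, against 16.7% of 9077 genes, and 1 was lower, against 14.2%. The lower one in HKO was Fabp5, at 132 and 416 CPM (0.316, 0.236 to 0.428), while Cd9 (1.09, 0.627 to 2.04) and Lgals3 (1.01, 0.836 to 1.23) had ratios near 1. Without the 4th sub-cluster, 5 were higher in HKO, against 17.4% of 8917 genes, and 1, Fabp5, was lower, against 14.6%. The monocyte sums were 2492 CPM (2281 to 2718) and 2057 CPM (1853 to 2278), giving 0.826 (0.720 to 0.945). At least 2-fold lower in HKO were 3 of the 10 genes (Gpnmb, Spp1 and Mmp12), against 12.7% of 6022 genes. At least 2-fold higher was 1, Fabp5, against 6.24%. Mmp12 had 117 UMIs in WT, of which 114 (97.4%) lay in 1 barcode, and 0 in HKO. Gpnmb had 47 and 13 UMIs (0.316, 0.157 to 0.593), 12 of the 13 HKO UMIs lay in 1 barcode, and the ratio without the richest barcodes was 0.0435. Spp1 had 45 and 14 UMIs (0.355, 0.18 to 0.659), with 25 of the 45 in 1 barcode. Fabp5 stood at 82.6 CPM (17 UMIs) and 416 CPM (75 UMIs), giving 5.04 (2.95 to 9.10). Its 75 HKO UMIs came from 9 of 52 barcodes, and with barcodes weighted equally the ratio was 2.98. The neutrophil gene S100a8 had 1 UMI in WT and 61 UMIs in HKO monocytes, and its part in these differences was not tested.

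Trem2 was sparse in monocytes, with 12 UMIs in 4 of 24 WT barcodes and 8 UMIs in 7 of 52 HKO barcodes (58.3 and 44.4 CPM). Lgals3 stood at 675 and 715 CPM (1.06, 0.827 to 1.36), and Lpl at 330 and 494 CPM (1.49, 1.08 to 2.08). With barcodes weighted equally the ratio of Lpl was 0.911. The monocytes formed 2 sub-clusters. Both had the monocyte markers Vcan and F13a1. The one that also had Chil3 and Ly6c2 (10 WT and 22 HKO barcodes) held all 12 and 8 Trem2 UMIs and 46 of 47 and 13 of 13 Gpnmb UMIs. Its Lgals3 level was 996 and 1089 CPM, against 70.1 and 102.5 CPM in the other (14 and 30 barcodes). The latter was shallower, with medians of 4881 and 1868 UMIs against 14482 and 4926.5. Its hepatocyte markers summed to 43541 and 32185 CPM, against 17415 and 11773 CPM. The part of these markers in the Lgals3 difference was not tested.

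Dendritic cells, which present antigen to T cells, held almost no UMIs of Trem2, Gpnmb and Mmp12. The sum of the 10 genes was 446 CPM in WT and 827 CPM in HKO (1.85, 1.38 to 2.53). Median depths were 10124 UMIs (WT) and 3561.5 UMIs (HKO). Endothelial markers summed to 704 CPM in WT and 171 CPM in HKO, with 1 and 5 of 11 at 0, B and plasma cell markers to 430 and 152 CPM, with 2 and 6 of 9 at 0, and hepatocyte markers to 22418 and 14968 CPM, with none of 8 at 0. The part of these markers in the difference was not tested. Gpnmb was at 0 UMIs in 12 WT and 62 HKO barcodes, where 3 counts would be 23.5 and 10.9 CPM. Trem2 had 0 and 1 UMI, and Mmp12 2 and 2. Lgals3 was at 258 CPM in WT and 428 CPM in HKO (1.66, 1.12 to 2.52). A single WT barcode held 19 of the 33 WT UMIs of Lgals3 (57.6%), and without the barcode richest in it in each library the ratio was 2.91. Cd9 was at 125 and 94.3 CPM (0.754, 0.389 to 1.504). Fabp5 had 0 UMIs in WT and 54 in HKO, at least 8.35-fold higher against a floor of 3 counts in WT, but 38 of the 54 lay in 1 barcode. By sub-cluster in HKO, Lgals3 was at 586 CPM in the one led by Cd209a (21 barcodes), 456 CPM in the one with Xcr1 and Clec9a (23 barcodes) and 37.2 CPM in the plasmacytoid one with Siglech (18 barcodes).

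Biliary cells, which line the bile ducts, had the highest Spp1 level of the 5 classes in both libraries. The sum of the 10 genes was 13515 CPM in WT and 10500.3 CPM in HKO (0.777, 0.733 to 0.824), most of it Spp1. Spp1 stood at 13088 CPM in the 8 WT and 9940.0 CPM in the 24 HKO barcodes, which gave 0.759 (0.716 to 0.806). It was detected in every biliary barcode of both libraries. A single WT barcode held 1004 of 1841 UMIs (54.5%), and with each barcode weighted equally the ratio was 1.27. For the median barcode Spp1 was at 6945 CPM (WT) or 11094 CPM (HKO). Cd9 stood at 348 and 346 CPM (0.992, 0.696 to 1.43). Trem2, Gpnmb, Mmp12 and Axl were at 0 UMIs in both libraries, where 3 counts would be 21.3 and 10.9 CPM. Mertk had 0 and 11 UMIs, Lpl 3 and 12, and Lgals3 2 and 2. Endothelial markers summed to 355 CPM in WT and 866 CPM in HKO biliary barcodes, with none of 11 at 0, dendritic markers to 28.4 and 247 CPM, with 11 and 5 of 12 at 0, and stellate markers to 291 and 109 CPM, with 6 and 7 of 12 at 0. The part of these markers in the differences was not tested. Fabp5 was at 42.7 CPM (6 UMIs) and 124 CPM (34 UMIs), a ratio of 2.90 (1.204 to 8.45). Whether miR-33 was also deleted in biliary cells of the HKO mice was not tested.

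Genes linked to the 10 were counted by list in Clec4f-positive macrophages, HKO against WT, beside the 7.45% and 10.3% of all genes. The lists were counted over all 17 WT and 93 HKO barcodes and not by sub-cluster. The 5 WT barcodes of the 4th sub-cluster, with 69.5% of the WT UMIs of the 10 genes, are thus included. Of 15 genes for lysosomal digestion and cholesterol handling, 4 were at least 2-fold lower (Atp6v0d2, Cd63, Ctsd and Ctsl), 0 higher, and 13 had a ratio under 1 (median log2 ratio -0.26). The lowest was Atp6v0d2, a proton pump subunit, at 154 and 53.5 CPM (0.348, 0.230 to 0.526), and the highest was Abcg1, a cholesterol exporter, at 249 and 267 CPM. Of 13 measured further genes of the lipid-associated state, 1 was at least 2-fold lower (Lgals1, galectin-1, 141 and 52.4 CPM) and 0 higher, with a median of -0.48, and Timp2, a protease inhibitor, had the highest ratio (1.49, 0.987 to 2.31). Of 8 genes for lipid uptake, lipase partners and lipid droplets, 1 was lower (Angptl4, an inhibitor of lipoprotein lipase, 16 and 13 UMIs), 0 higher (median -0.34). In that list, Cd36, a fatty acid receptor, stood at 1113 and 741 CPM (0.666, 0.586 to 0.759), and Apoe, the apolipoprotein of macrophage cholesterol export, at 17095.5 and 17007 CPM (0.995, 0.965 to 1.03).

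Partners of the receptors were read in the same way. All 7 genes of TREM2 signalling and shedding stayed within 2-fold (median log2 ratio 0.00). Tyrobp, the adaptor, stood at 2106 and 1607 CPM (0.763, 0.697 to 0.837), and Plcg2, a phospholipase downstream of it, at 49.2 and 78.1 CPM. Of 6 measured osteopontin receptor genes, 1 was higher (Itga4, 73.8 and 152 CPM) and 0 lower. Cd44 stood at 793 and 1110 CPM (1.40, 1.22 to 1.61), and Itgb5 had the lowest ratio (0.902, 0.725 to 1.13). Of the TAM ligands, Pros1 (protein S) gave 19 and 67 UMIs (1.23, 0.728 to 2.16) and Gas6 gave 5 and 6 UMIs (0.418, 0.106 to 1.73). All 7 regulators stayed within 2-fold, from Bhlhe40 (0.733, 0.492 to 1.11) to Tfec (1.31, 0.877 to 1.99) among those with at least 50 UMIs. Genes named for the 2-fold counts alone (Cd63, Ctsd, Ctsl, Angptl4) and S100a8 were chosen after their values were seen.

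In monocytes the same lists gave other values, read beside the 6.24% of all genes at least 2-fold higher and 12.7% lower. Of 6 measured regulators, 2 were at least 2-fold higher (Pparg and Tfe3) and 1 lower (Bhlhe40). Pparg, a nuclear receptor for fatty acids, stood at 131 and 288 CPM (2.20, 1.36 to 3.64), and Bhlhe40, a transcription factor, at 204 and 77.6 CPM (0.380, 0.192 to 0.711). Tfe3, named after its values were seen, had 3 and 11 UMIs. Of TREM2 signalling, Tyrobp stood at 821 and 1564 CPM (1.90, 1.57 to 2.32) and Syk, a kinase downstream of it, at 690 and 627 CPM. Among osteopontin receptors, Cd44 stood at 670 and 993 CPM (1.48, 1.18 to 1.86) and Itga4 at 976 and 571 CPM (0.585, 0.457 to 0.745). Among genes for lipid uptake, Cd36 stood at 238 and 316 CPM and Apoe at 6835 and 5778 CPM. Of 14 measured lysosomal genes, 1 was lower (Hexa, 32 and 14 UMIs, also named after its values were seen), with Lamp1, a lysosomal membrane protein, at 457 and 294 CPM. Of the 14 measured further genes of the lipid-associated state, 4 were at least 2-fold higher (Lgals1, Pld3, Emp1 and Timp2) and 1 lower (Vat1), all but Lgals1 named after their values were seen, with a median log2 ratio of 0.48, and with Lgals1 at 117 and 250 CPM (2.14, 1.28 to 3.67) and Anxa5, an annexin, at 394 and 227 CPM (0.578, 0.387 to 0.851). In the few Clec4f-negative macrophages, Fth1, a ferritin subunit, stood at 2557 and 8985 CPM (3.51, 2.93 to 4.24), Cd63, a lysosomal tetraspanin, at 93.3 and 629 CPM (6.74, 2.74 to 21.5), and Igf1, a growth factor, at 1456 and 629 CPM (0.432, 0.306 to 0.609). Other lowest and highest ratios of a list there were 1.53 for Tyrobp and 1.70 for Syk, 1.03 for Itga9 and 1.36 for Itgav, 0.708 for Apoe and 1.53 for Plin2, and 2.40 for Nr1h3, the 1 regulator with at least 50 UMIs.

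The genes whose levels ran most alike were sought over 24 points, each a class in 1 library with at least 10 barcodes, by Pearson correlation of log2(CPM + 1). The points share libraries and depth, so r is a description. Trem2 ran most like Ms4a7 (r = 0.95), Ear2 (0.95) and Sat1 (0.94). Gpnmb ran most like Cd300e (0.94), Pilrb2 (0.92) and Trem2 (0.92). Mmp12 ran most like Rims3 (0.90), Mmp13 (0.89) and Gdf3 (0.87). Spp1 had lower values, with Shank2 (0.76), Ppil6 (0.74) and Sytl5 (0.73). The sum of the 10 genes ran most like Asah1 (0.92), which encodes lysosomal acid ceramidase, Ppp1r15a (0.92) and Nkiras2 (0.90).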

How the data were processed

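The authors deposited raw UMI counts, without normalization, as a matrix for each library; its header names Cell Ranger 7.1.0, and the build was mm10. Per the submitters' processing notes, R 3.0 and Seurat 3 were also used. In this work, barcodes with at least 500 UMIs, 300 genes and at most 50% mitochondrial UMIs were kept, 29620 in WT and 18247 in HKO. Counts were scaled to 10000, and 2000 variable genes, 30 components, 15 neighbours and Leiden resolution 1.0 were used (scanpy 1.11.5, scipy 1.17.1, Python 3.11.15). Clusters were named from at least 3 markers, in repeated rounds. Doublets were not removed by a caller, because the Scrublet threshold marked 0 barcodes, and clusters with markers of 2 classes were held apart. Barcodes of first-round clusters that no marker list of another cell type named were called hepatocyte-like with at least 5000 UMIs and free RNA depth below that. UMIs were summed over a class. Intervals are exact Poisson, exact conditional (ratios) or Clopper-Pearson at 95%, and cover counting error only. Genes with at least 10 UMIs over both groups were counted at 2-fold, with 0 set to 3 counts. Ratios and intervals were tested on simulated Poisson counts. These were drawn independently for each gene and leave out the clumping of UMIs in single barcodes. The members and lists were chosen with earlier results of these data known. Named genes are the 10, plus, of each list, those with the highest and lowest ratio among genes with at least 50 UMIs, and Tyrobp, Gas6, Pros1, Cd44 and Apoe; 1 gene that this rule names is not reported here. There were no tests between groups.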

Additional observations from a re-analysis of the deposited data

Results flagged for a closer look

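The HKO over WT ratio of the sum of the 10 genes went opposite ways in the macrophage classes, 0.675 in Clec4f-positive and 3.61 in Clec4f-negative barcodes. The difference between these ratios was not tested, since there was 1 library per genotype. The Clec4f-negative ratio rests on 4 WT and 7 HKO barcodes, and 1 HKO barcode holds 57.6% of the UMIs of the 10 genes in the HKO ones. The 4 WT barcodes lay in the second macrophage sub-cluster and the HKO barcodes in the first (6) and the 4th (1), with none in common. The Clec4f-positive ratio depends on the 4th sub-cluster, which held 5 of the 17 WT Clec4f-positive barcodes. Without it the ratio was 1.16 (1.08 to 1.24), above 1 as in Clec4f-negative barcodes, though the groups left differed in sub-cluster. Within the second and the 4th sub-cluster it was 0.694 and 0.868.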

How the results depend on the processing

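No paired analysis was possible because each genotype had 1 library. In Clec4f-positive macrophages the ratio of the sum of the 10 genes (0.675) was 0.795 with barcodes weighted equally, 0.860 without the richest barcode, 0.722 with mixed macrophage barcodes, 0.892 without barcodes holding a lymphocyte marker UMI and 1.16 without the 4th macrophage sub-cluster. Without that sub-cluster, Trem2 was at 1.02, Gpnmb at 5.14, Fabp5 at 1.80, Mmp12 at 1.64, and 0 of the 10 genes were 2-fold lower against 5 (9.66% of 8828 genes), but the remaining WT barcodes all lay in the second sub-cluster and most HKO barcodes in sub-clusters without WT barcodes. Within the second sub-cluster the ratio of the sum was 0.694, Gpnmb was at 2.45 and Trem2 at 0.511. There 2 of the 9 genes with at least 10 UMIs were lower (8.92% of 5637 genes). Within the 4th the sum was at 0.868 and 4 of 9 were lower (13.8% of 3643 genes), with Lpl at 1.31, Mertk at 1.58 and Lgals3 at 1.08. Without lymphocyte-marked barcodes, Spp1 was at 0.176 and Mmp12 at 1.06. Spp1 (2.92) was at 1.11 with all genes in clustering, 7.91 with hepatocyte and free RNA subtracted and 8.50 without the sub-cluster. Pooling with mixed barcodes, removing lymphocyte-marked barcodes and the uses of sub-clusters were chosen after seeing the data. Without the richest barcode, the Clec4f-negative HKO over WT ratio of the sum (3.61) was 2.24 and that of biliary cells (0.777) 1.11. With equal weights, the dendritic ratio (1.85) was 2.54 and the biliary turned to 1.27, and the biliary was 0.871 under median of ratios scaling. Without the richest barcode, dendritic Lgals3 (1.66) was at 2.91. The Clec4f-negative over Clec4f-positive ratio of the sum was 0.322 (equal weights) and 0.317 (without the richest barcode) in WT, and 1.25 and 0.823 in HKO, where without that barcode Spp1 stood at 0.763, Fabp5 at 0.552 and Lgals3 at 1.69. Without the 4th sub-cluster it was 0.485 in WT, with Trem2 at 1.21 and Gpnmb at 2.76, and 1.53 in HKO. The WT Clec4f-positive over monocyte ratio of the sum (3.63) was then 1.95, with Gpnmb at 0.119, Fabp5 at 0.722 and Mmp12 at 0.801. The counts of genes at least 2-fold higher and lower (956 and 690 in Clec4f-positive macrophages, 376 and 762 in monocytes) were 356 and 394, and 148 and 300, where the interval had to exclude 1. From 1 UMI they were 1179 and 1700 (Clec4f-positive), so that lower genes then outnumbered higher ones, and 1158 and 1484 (monocytes). The cause was not tested for any of these. Scrublet removal, the UMI minimum, the mitochondrial maximum, Leiden resolution 2.0 and all genes in clustering left each HKO over WT ratio of the sum within its interval in the 5 classes. The WT Clec4f-negative class had the fewest UMIs of the 5 classes, so that 3 counts were 56.0 CPM, and rests on 4 barcodes. The WT biliary values rest on 8.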
